A study of Mus musculus with 71 samples.

Results

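The cortex of control mice was compared with 3 other brain regions on 16 oligonucleotide arrays out of 71 in the series, 4 each for cortex, hippocampus, hypothalamus and striatum. The 16 arrays were chosen by their labels as the controls of the GLP cohort. These mice were GLPfl/fl: both alleles of Ehmt1, the gene of the histone methyltransferase GLP, are floxed, and the labels name no Cre recombinase. Controls were littermates of the mutants, matched for age and sex, and were 10 to 14 weeks old by the series design and 12 weeks old by the extraction protocol. Each sample is total RNA of a whole dissected region, so its cell types are mixed, and no source used here states if the 4 regions came from the same animals. The same contrast was repeated on 13 control arrays of the G9a cohort, labelled G9afl/fl (floxed Ehmt2, the gene of the related enzyme G9a), which hold 2 cortex arrays, and on 16 arrays of GLP mutants, labelled Camk2a-Cre; GLPfl/fl. In those mutants Cre is driven by the promoter of Camk2a, a kinase gene of forebrain excitatory neurons. Levels below are the log2 of an array intensity relative to the median of its array, so 0 is the array median. Differences are the cortex mean minus the mean of the 3 other group means on that scale, unless a single region is named.

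The neocortex is a layered sheet whose neurons are mostly glutamatergic projection neurons derived from the dorsal telencephalon, the pallium. Upper layers connect mainly to other cortex, deep layers send axons to subcortical targets, and GABAergic interneurons are scattered through all layers. The hippocampus is also pallial, whereas the striatum is built mostly of GABAergic medium spiny neurons and the hypothalamus of many small groups of peptide-secreting neurons.

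Of 18193 named genes, 12090 lay above the array median on at least 4 of the 16 arrays and were tested with limma, with Benjamini-Hochberg adjustment over all of them. A gene is described as called where its adjusted p was below 0.05. Between cortex and the mean of the other regions, 8216 genes (68%) were called, 3497 (28.9%) higher and 4719 (39%) lower, and the median difference of all genes was -0.08. Calls by 1 or more on the log2 scale numbered 1286 (10.6%), 641 (5.3%) higher and 645 (5.33%) lower. Whatever the size or call, all 4 cortex arrays lay above the other 12 for 9.41% of genes and below them for 14.6%. In 423 genes (3.5%) such a rise came with all 4 cortex arrays above the other 12, and in 481 (3.98%) such a fall came with all 4 below. Against single regions, 6566 genes were called for hippocampus (54.3%), 7395 for striatum (61.2%) and 9282 for hypothalamus (76.8%). Higher and lower calls made up 20.7% and 33.6% of genes against hippocampus, 25% and 36.2% against striatum, and 36.7% and 40.1% against hypothalamus. These 3 comparisons share the cortex arrays. After quantile normalization the share of higher calls against hippocampus was 49.3% instead of 38.1%.

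The labelled tissues carried their markers, but some arrays stood apart. The 26 genes of pallial excitatory neurons averaged 5.36 to 5.54 on the cortex arrays, 5.39 to 5.70 in hippocampus, 3.91 to 4.59 in striatum and 2.01 to 2.43 in hypothalamus. Striatum arrays 3 and 4 carried more of these markers than arrays 1 and 2. Slc17a7, the vesicular glutamate transporter of pallial neurons, read -0.71, 0.32, 1.72 and 1.61 on striatum arrays 1 to 4. The 12 genes of choroid plexus and ependyma, the epithelia of the ventricles, averaged -0.05 to 0.21 in cortex and 1.67 to 3.25 in hippocampus, where arrays 1 and 4 were highest. The log2 gap between 3′ and 5′ actin control probes, a sign of RNA integrity and amplification, was 3.18 to 3.69 in hypothalamus, 2.42 to 2.64 in cortex, 2.07 to 2.17 in hippocampus and 2.06 to 2.19 in striatum. Beyond the values given below without those arrays or regions, the part of these differences in the results was not tested. In whole tissue, fewer cells of a type and less RNA per cell cannot be told apart.

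**Figure D1:**
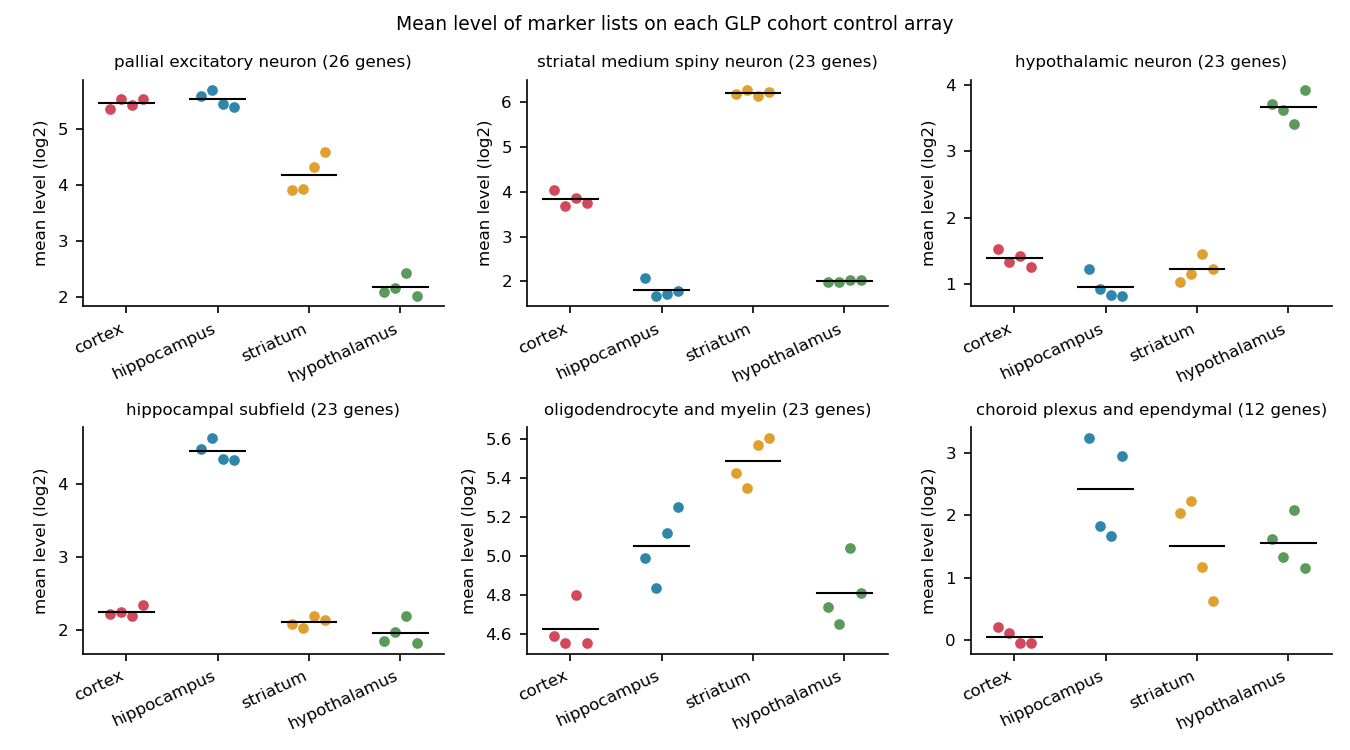
Mean log2 level (y axes, array median at 0) of 6 marker lists on each of the 16 control arrays; points are arrays 1 to 4 from left to right within a region and lines are region means. Cortex overlapped hippocampus for the 26 pallial genes, below striatum and above the other regions for the 23 medium spiny neuron genes, and lowest for the 12 choroid plexus and ependymal genes.

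The largest rises in cortex were in genes of unlike function, most of them near or below the array median in some other region. Abi3bp, which encodes an extracellular matrix protein, read 3.86, 3.40, 3.19 and 2.95 on the 4 cortex arrays. It lay at 1.22 to 1.91 in striatum and at -2.90 to -2.28 in hippocampus and hypothalamus. All cortex arrays were above every other array, with striatum next, and the difference was 4.53 ± 0.16 (SE, 4 arrays a region, limma adjusted p = 4.94e-13). Pappa2, a protease that cleaves binding proteins of insulin-like growth factors, read 0.90, 1.06, 1.04 and 1.45 in cortex and -3.47 to -3.27 on the other 12 arrays, so that it was above the array median in cortex alone. Taking any value below the array median as 0, cortex was at least 7.01-fold higher for Abi3bp and at least 2.16-fold higher for Pappa2.

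Kcnk12, a subunit of the two-pore potassium channels, lay just above the median in cortex, at 0.18, 0.40, 0.55 and 0.48. All other arrays were far below it, at -4.53 to -2.40, and the difference was 4.26 ± 0.15 (limma adjusted p = 4.94e-13), or at least 1.32-fold. Like Pappa2, Kcnk12 was tested only because its cortex arrays lay above the median, so its p-value is not independent of that choice. The same holds for Dkkl1, Doc2g, Scube1, Kcnh5, Myl4, Trbv1 and Tmem40 below. Tbr1, a transcription factor that specifies deep layer projection neurons, read 6.18, 6.32, 5.88 and 5.81 in cortex and 3.58 to 4.08 in hippocampus. Its striatum arrays spread widely, at 1.37, 1.55, 2.70 and 4.00, and hypothalamus was lowest at 0.14 to 0.77. No other array reached the cortex arrays, and the difference was 3.82 ± 0.31 (limma adjusted p = 1.28e-08), a 14.2-fold rise. Cartpt, the precursor of the CART peptides, read 3.25, 3.08, 2.80 and 2.86 in cortex. Hypothalamus, where the peptides are best known, had 1.46 to 2.46, and hippocampus and striatum had -3.13 to -1.18. Cortex was thus clear of hypothalamus too, with a difference of 1.07 between the means.

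The remaining members of the 14 largest rises differed by 3.05 to 3.65. They were Dkkl1 (a secreted Dickkopf-like protein), Dtl (a substrate receptor of a ubiquitin ligase), Epop (a partner of Polycomb complexes), Myl4 and Tnnc1 (a myosin light chain and a troponin best known from muscle), Doc2g, Scube1, Trbv1 (a T cell receptor segment by its symbol) and Tmem40. Scube1, a secreted protein with growth factor-like repeats, was tight within regions, at 2.30 to 2.52 in cortex and -1.14 to -0.54 elsewhere. Myl4 varied more within cortex, at 2.46, 2.85, 3.10 and 3.99, and still exceeded all other arrays, which lay at -1.14 to 1.22. Tnnc1 was not low everywhere else, since hypothalamus had 2.20 to 3.09 against 3.86 to 4.10 in cortex. Doc2g, a relative of synaptic calcium sensors, read 1.92, 2.02, 2.67 and 3.06 in cortex and -1.09 to -0.61 elsewhere, and is known from the olfactory bulb. A list of olfactory bulb genes, chosen after these values were seen, had 6 genes tested, of which 4 were called higher and 0 lower. Its mean level was 1.79 to 3.43 on the cortex arrays, 0.97 to 1.78 in striatum, 0.67 to 1.34 in hippocampus and 0.80 to 1.20 in hypothalamus. Of its members Eomes (0.77, limma adjusted p = 0.153) and Sp8 (0.78, adjusted p = 0.185) were not called. The part of olfactory tissue in the cortex samples was not tested.

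**Figure D2:**
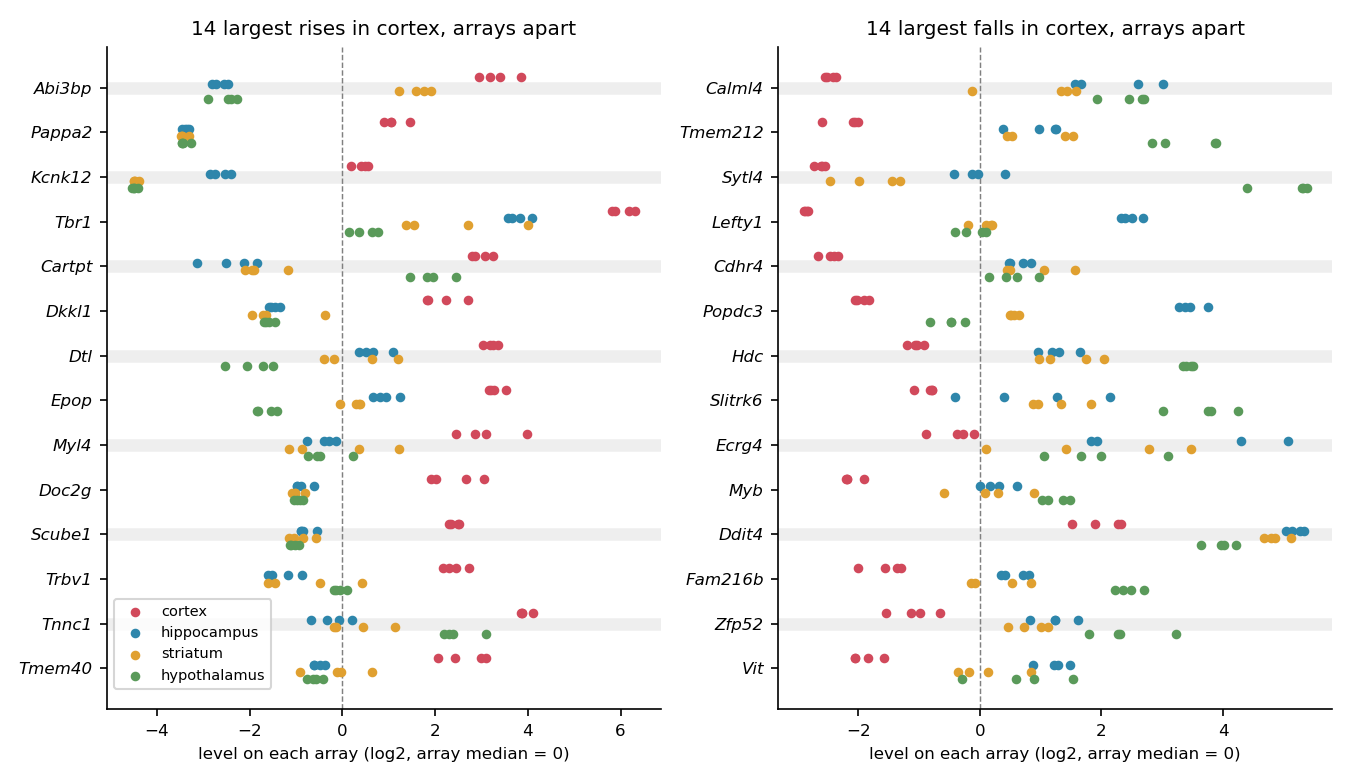
Log2 level on each control array (x axes, array median at 0) of the 14 largest rises and 14 largest falls among genes called by 1 or more whose 4 cortex arrays lay on one side of the other 12; each point is 1 array, coloured by region. Cortex points are clear of all others in each row, as the choice of genes requires, while the other 3 regions differ among themselves, as for Tbr1 and Sytl4.

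The region closest to cortex differed by gene. Among the 423 genes that rose by 1 or more with arrays apart, the highest other region was hippocampus for 264 (62.4%), striatum for 122 (28.8%) and hypothalamus for 37 (8.7%). Over all 12090 genes these shares were 33.9%, 28.7% and 37.3%. Among the 481 that fell, the lowest other region was hippocampus for 196 (40.7%), striatum for 184 (38.3%) and hypothalamus for 101 (21.0%), against 28.9%, 27.2% and 44.0% over all genes. These shares are a description and carry no test. The size of a difference also depended on the probe set: of 77 named genes with several, 28 had another of the same direction that was more than 1.5 times smaller. Abi3bp had one at 2.75, Tmem40 at 1.81, Ecrg4 at -1.59, Gfap at -1.07 and -1.20, Ogn at -0.80, Htr1f at 0.99, Map1b at 0.59, Plxna4 at 0.39 and Scn9a at -0.50, the last not called. Ina had others at 0.52 and 0.67, and Cdh8 had a smaller one at -0.77 and a larger one at -3.29. Just inside the size threshold were Kmt2e at 1.0019 and Tmcc3 at -1.0009, and just outside it Med15 at 0.9999 and Aym1 at -0.9989.

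Beyond single genes, 27 lists of markers and gene families were followed. Over all genes, 8673 were called in either direction with hippocampus left out of the mean, 8457 without striatum and 7270 without hypothalamus. Those totals are not split by direction here, so list counts with a region left out have no share of all genes beside them. Where a list count below is 0 in the main contrast or against a single region, it was also 0 at an unadjusted p below 0.05. Genes of cortical layers were mostly higher in cortex, though few separated it from all other arrays. Of 19 upper layer genes, 13 were called higher and 2 lower, with a median difference of 0.56. Of 28 deep layer genes, 19 were higher and 3 lower, with a median of 0.57. The cortex arrays were all above the other 12 for 3 upper layer and 3 deep layer genes. With hypothalamus left out of the mean, the deep layer counts were 14 higher and 7 lower. Without striatum arrays 3 and 4, they were 15 and 3.

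Lamp5, a membrane protein of superficial neurons and some interneurons, read 6.33, 6.57, 6.54 and 6.65 in cortex and 5.76 to 6.10 in striatum. Hippocampus had 4.02 to 4.22 and hypothalamus 1.82 to 2.17. The difference of 2.52 ± 0.08 from the mean of 3 regions (limma adjusted p = 2.16e-13) was thus 0.62 from striatum alone. Kcnh5, a voltage-gated potassium channel, rose by 2.27 with all arrays apart. Plxnd1, a semaphorin receptor, was called higher by 1.66 although its mean was 3.15 in striatum and 3.02 in cortex. Calb1, which encodes the calcium buffer calbindin, and Pou3f3, a POU domain factor, were the lower members, by -0.72 and -0.36. The direction of Pou3f3 reversed when its probe sets were averaged.

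Among deep layer genes other than Tbr1, Ccn2, a matrix-associated protein of the deepest cortical layer, read 4.73, 4.86, 4.69 and 3.89 in cortex. Its striatum arrays read 2.66, 2.69, 3.26 and 3.89, and the highest of them reached the lowest cortex array, so the groups were not apart despite a difference of 2.31 ± 0.23. Cplx3, a complexin of the same layer, rose by 1.96 with arrays apart. Fezf2, which specifies neurons projecting below the cortex, was higher in hippocampus (3.88 to 4.42) than in cortex (3.24 to 3.75), and lower in striatum (0.61 to 1.61) and hypothalamus (-1.06 to -0.27). Its difference of 1.87 from the mean therefore held one of -0.74 from hippocampus. The lower members were Trib2 (-0.79), Tshz2 (-0.72) and the potassium channel Kcnk2 (-0.22), and another probe set of Trib2 was called in the opposite direction.

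Genes of pallial excitatory neurons at large rose against hypothalamus and striatum and not as a group against hippocampus. Of 26 tested, 25 were called higher and 0 lower in the main contrast with a median of 1.67. The medians were 3.17 against hypothalamus, 0.97 against striatum and -0.17 against hippocampus, the last with 7 higher and 10 lower. With hypothalamus left out of the mean, 15 were higher and 2 lower. Slc17a7 read 5.17, 5.08, 5.46 and 5.25 in cortex and 5.21, 5.65, 5.33 and 4.38 in hippocampus, so these groups overlapped. Striatum and hypothalamus lay at -2.12 to 1.72, and its difference of 3.84 ± 0.34 (limma adjusted p = 3.76e-08) came from them.

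Some pallial genes did separate cortex from hippocampus. Mef2c, a transcription factor of maturing neurons, had means of 8.62 in cortex, 7.06 in striatum, 6.78 in hippocampus and 4.98 in hypothalamus, a difference of 2.35 ± 0.07 with all arrays apart. Nell2, a secreted neuronal glycoprotein, rose by 2.51 with 6.35, 7.01, 6.34 and 7.24 in cortex and 5.33, 5.23, 5.00 and 5.70 in hippocampus, and Kcnv1, a modifying potassium channel subunit, rose by 2.31. Neurod6, a factor of pallial excitatory neurons, went the other way against hippocampus. It read 4.25 to 4.54 in cortex and 6.58 to 7.35 in hippocampus, a difference of -2.63, but 1.85 from the mean of 3 regions.

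**Figure D3:**
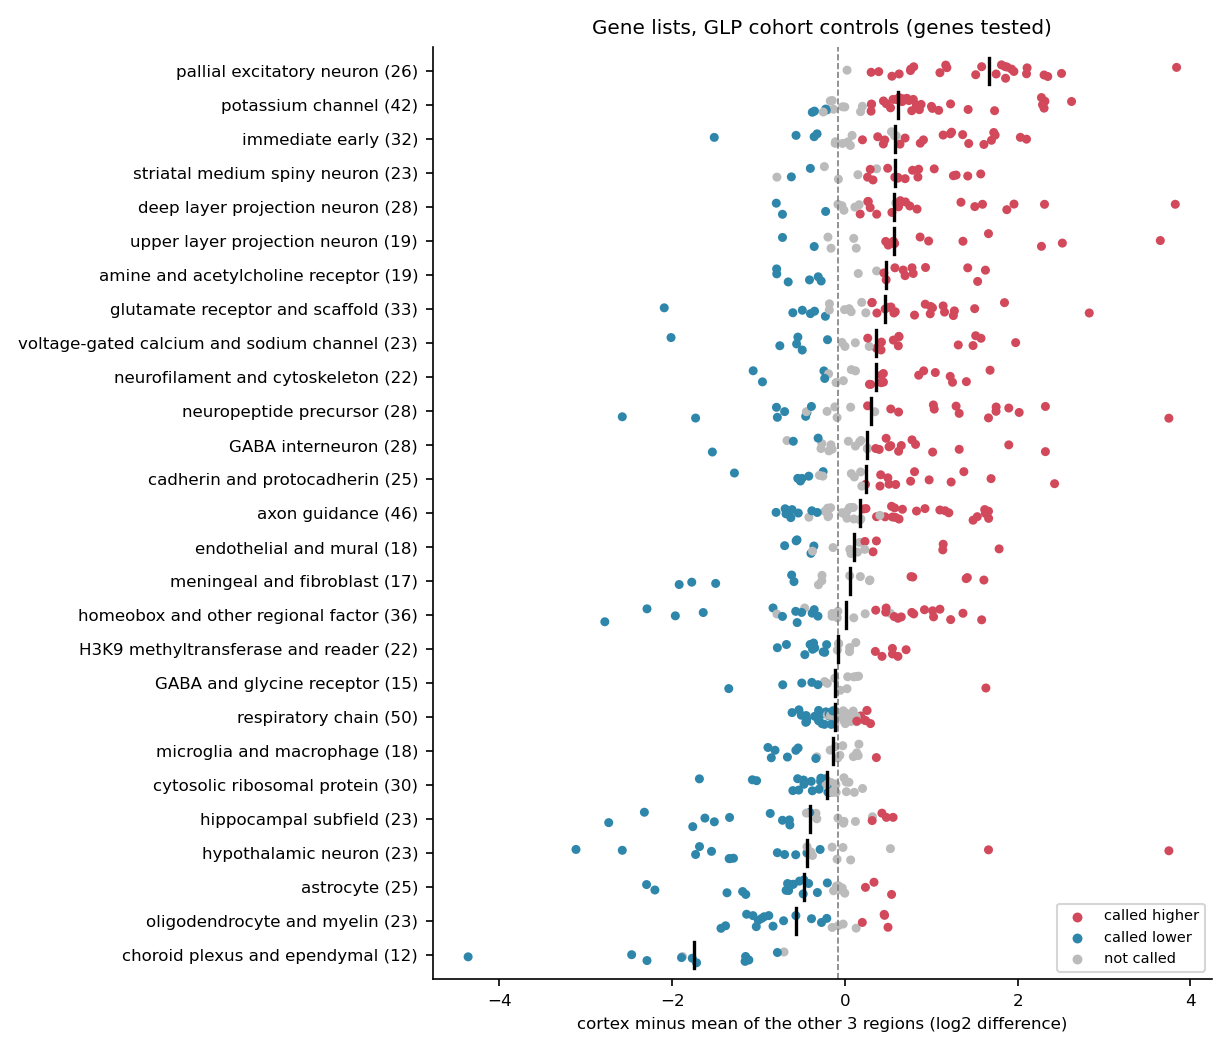
Difference between cortex and the mean of the other 3 regions (x axis, log2) for every tested gene of 27 lists, with the number tested in brackets; each point is a gene, coloured by its call, short black lines are list medians and the dashed line is the median of all genes at -0.08. Pallial genes have the highest median at 1.67 and choroid plexus and ependymal genes the lowest at -1.74, with both directions present in most lists.

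Interneuron genes rose in smaller number. Of 28 tested, 13 were higher and 3 lower, with a median of 0.26; without hypothalamus in the mean the counts were 9 and 7. Vip, the vasoactive intestinal peptide of one interneuron class, read 5.50, 5.94, 5.65 and 5.70 in cortex. Hippocampus had 3.92 to 4.50, hypothalamus 2.87 to 4.84 and striatum 0.99 to 2.73, all below cortex, and the difference was 2.32 ± 0.30 (limma adjusted p = 2.26e-06). Npy, neuropeptide Y, read 5.43 to 5.88 in cortex and 4.66 to 4.81 in striatum, next in order, and rose by 1.90. Crh, corticotropin-releasing hormone, rose by 1.32 and was above hypothalamus too, at 5.00, 4.99, 4.79 and 5.16 against 4.36, 4.71, 3.75 and 4.50. Lhx6, a factor of interneurons from the medial ganglionic eminence, rose by 1.02 with arrays apart. Gad1, a synthetic enzyme of GABA, rose by 0.40 but had its highest mean in striatum (9.18 against 8.69). The lower members were Chodl (-1.53), Nxph1 (-0.60) and the cannabinoid receptor gene Cnr1 (-0.31), of which Cnr1 had another probe set called in the opposite direction.

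Peptide precursors rose against hippocampus and striatum and were split against hypothalamus. Of 28 tested, 14 were higher and 8 lower in the main contrast. The counts were 15 and 4 against hippocampus, 16 and 3 against striatum, and 11 and 14 against hypothalamus. Chga, chromogranin A of dense-core vesicles, read 5.44, 5.51, 5.35 and 5.38 in cortex and 2.80 to 3.63 elsewhere. It was thus clear of all other arrays, and differed by 2.02 ± 0.10 from the mean of the other regions. Vgf, another granule protein, rose by 1.66 with arrays apart. Pmch and Hcrt, the peptides of the lateral hypothalamus, fell by 2.58 and 1.73.

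The 250 bases before the start of 4 peptide genes that rose are shown because each holds TGACGT, the core of the cyclic AMP response element, here in capitals (extended to TGACGTCA where present). They are RefSeq sequence of build GRCm38.p6, printed on the strand of the gene, and the motif and the genes were chosen after the values were seen. In order they lie at chr13:99900684-99900933 (minus strand), chr10:5638968-5639217 (plus), chr12:102554691-102554940 (plus) and chr16:23890845-23891094 (minus).
Cartpt: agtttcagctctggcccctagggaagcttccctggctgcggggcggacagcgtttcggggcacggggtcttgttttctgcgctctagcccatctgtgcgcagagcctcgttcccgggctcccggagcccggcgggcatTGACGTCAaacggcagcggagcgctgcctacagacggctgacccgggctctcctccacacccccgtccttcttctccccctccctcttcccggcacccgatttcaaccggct
Vip: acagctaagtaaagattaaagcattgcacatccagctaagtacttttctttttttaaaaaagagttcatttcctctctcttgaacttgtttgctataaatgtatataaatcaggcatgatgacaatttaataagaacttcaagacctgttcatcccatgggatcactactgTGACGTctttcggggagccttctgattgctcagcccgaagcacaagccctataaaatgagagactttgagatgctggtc
Chga: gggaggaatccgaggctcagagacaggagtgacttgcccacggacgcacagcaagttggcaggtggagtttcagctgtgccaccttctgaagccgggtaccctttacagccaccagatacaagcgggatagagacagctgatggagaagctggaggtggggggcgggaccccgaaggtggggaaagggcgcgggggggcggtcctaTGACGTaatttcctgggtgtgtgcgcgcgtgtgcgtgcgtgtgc
Sst: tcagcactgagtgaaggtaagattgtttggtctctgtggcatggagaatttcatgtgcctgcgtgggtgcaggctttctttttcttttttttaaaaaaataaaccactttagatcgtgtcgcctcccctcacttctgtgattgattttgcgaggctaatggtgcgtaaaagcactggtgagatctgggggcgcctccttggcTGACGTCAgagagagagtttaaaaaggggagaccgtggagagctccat
Counted from the start site, the first base of the motif was at -112 in Cartpt, -79 in Vip, -44 in Chga and -48 in Sst. Sst, the somatostatin gene, was called higher by 0.53. Of 23 tested peptide genes with a promoter in the table, 7 held TGACGT on either strand: 6 of the 11 called higher (54.55%; the 4 above with Adcyap1 and Chgb) and 1 of the 12 others (8.33%, Scg2). Counted by promoter and not by gene, the share was 9.78% over promoters of all tested genes and 6.47% over all 32851 promoters. A gene can have several promoters and was counted if any held the motif, so the shares are not of like units. The longer TGACGTCA, which contains TGACGT on both strands, was in 3 of the 11 and 1 of the 12, and in 2.55% of promoters of tested genes. A match is a description of these letters, with no binding measured, and Crh and Vgf had no entry in the table.

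Genes induced by neuronal activity were higher mainly through their low level in hypothalamus. Of 32 immediate early genes, 19 were called higher and 4 lower, with medians of 1.75 against hypothalamus, 0.07 against hippocampus and 0.04 against striatum. Without hypothalamus in the mean, 10 were higher and 10 lower. Egr3, a zinc finger factor, read 6.41 to 6.73 in cortex, 6.20 to 6.57 in hippocampus, 7.09 to 7.34 in striatum and -0.28 to 0.26 in hypothalamus. Its difference of 2.10 was -0.60 from striatum and 6.68 from hypothalamus. Nptx2, a secreted pentraxin of excitatory synapses, was in contrast apart from all regions, at 3.45, 3.61, 3.97 and 4.51 in cortex and 0.24 to 2.75 elsewhere. Egr1 rose by 1.72 with cortex (6.69 to 7.34) overlapping striatum (6.80 to 7.09), and Ptgs2, cyclooxygenase 2, rose by 1.74 with hippocampus highest. Sik1, a salt-inducible kinase, fell by 1.51 with all cortex arrays below the rest.

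Marker lists of the other regions were each highest in their own region, and cortex carried the medium spiny neuron list at a level between striatum and the rest. Of genes on the array, all 23 medium spiny neuron genes and 23 of 24 hippocampal genes were tested, but only 23 of 32 hypothalamic genes. A hypothalamic marker could be tested through its own region alone, so the order for that list is partly built in. The 23 medium spiny neuron genes were all lower than in striatum (median -2.52), yet all 23 were called higher than in hippocampus (median 2.01) and 20 higher than in hypothalamus. Their mean level was 3.68 to 4.04 in cortex, 6.14 to 6.26 in striatum, 1.67 to 2.07 in hippocampus and 1.98 to 2.03 in hypothalamus. Against the mean of 3 regions 16 were higher and 2 lower, but 5 and 10 without hippocampus and 3 and 7 without hypothalamus, and 21 were higher without striatum. In the G9a cohort controls 7 were higher and 4 lower, beside 17.7% and 34.5% of all genes, with a median of -0.02. Drd1, the D1 dopamine receptor, read 5.31, 4.74, 5.10 and 4.73 in cortex, 7.45 to 7.80 in striatum and 1.18 to 1.82 in the other regions. Ppp1r1b, the phosphoprotein DARPP-32, had 4.72 to 5.29 in cortex and 7.48 to 7.78 in striatum, and Penk, the enkephalin precursor, 5.81 to 6.16 and 8.09 to 8.23. Cortex arrays lay between striatum and the other regions for all of these, with no overlap. Drd2, the D2 receptor, was not called (0.37, limma adjusted p = 0.08), with means of 1.27 in cortex and 4.02 in striatum. How much of these levels was striatal tissue in the cortex samples was not tested.

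Of 23 hypothalamic genes, 2 were higher (Cartpt and Vgf) and 13 lower, with a median of -2.34 against hypothalamus alone. As a gene of this list could be tested through hypothalamus alone, the lower calls partly follow from the filter. Without hypothalamus in the mean, 9 were higher and 6 lower. Pmch read 2.62, 0.64, 1.33 and -0.75 in cortex and 8.50 to 9.06 in hypothalamus, the largest fall against that region, at -7.83. Nnat, an imprinted membrane protein gene, fell by 1.68 and was below all other regions. Avp, vasopressin, was not called against the mean (-0.09, limma adjusted p = 0.662). Of 23 hippocampal subfield genes, 4 were higher and 11 lower, and 0 higher and 20 lower against hippocampus. Without hippocampus in the mean they split 12 and 5. Dsp, desmoplakin of dentate granule cells, read 5.09 to 5.73 in hippocampus and -2.27 to -1.43 in cortex, a difference of -7.34. Dsp lay below the array median on all arrays outside hippocampus, so it was tested only through that region. Below the median a difference has no exact size. C1ql2, a synaptic C1q-like protein of dentate granule cells, fell by 2.32. Lef1, a nuclear effector of Wnt signalling, was below all 3 regions and fell by 1.76.

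**Figure D4:**
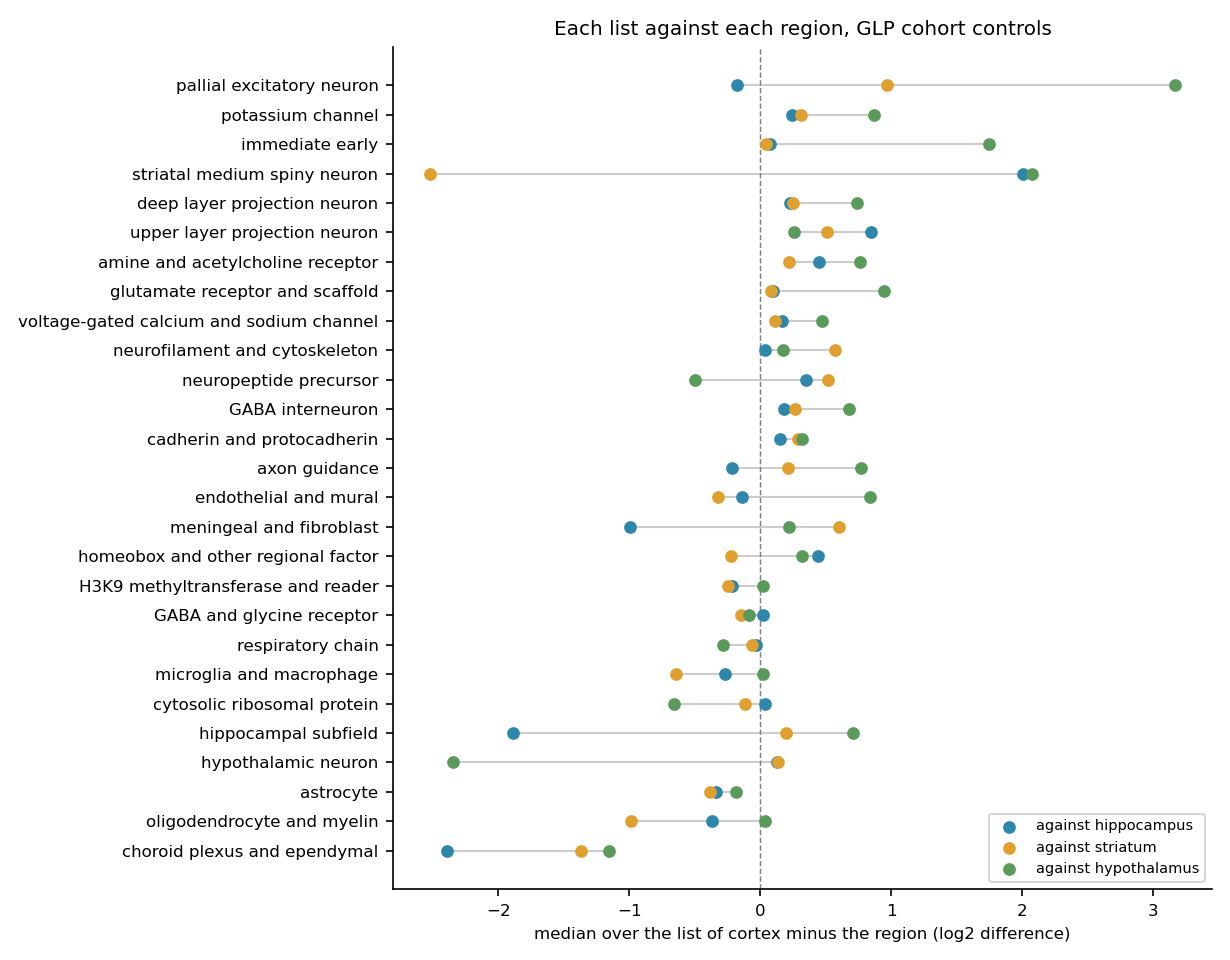
Median over each of 27 lists of cortex minus hippocampus, striatum or hypothalamus (x axis, log2 difference); each row is a list and each point a region. Pallial genes run from -0.17 against hippocampus to 3.17 against hypothalamus, medium spiny neuron genes from -2.52 against striatum to 2.07 against hypothalamus, and only some lists lie on one side of 0 for all regions.

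Oligodendrocyte and astrocyte genes were mostly lower in cortex than in the mean of the other regions, but less so against hypothalamus. Of 23 oligodendrocyte and myelin genes, 4 were higher and 15 lower, with a median of -0.57, and -0.99 against striatum, where 0 were higher. Against hypothalamus 7 were higher and 10 lower, with a median of 0.03, beside 36.7% and 40.1% of all genes. Their mean level was 4.55 to 4.80 in cortex and 4.65 to 5.04 in hypothalamus. Mog, a myelin surface glycoprotein, read 3.78, 3.64, 3.95 and 3.29 in cortex and 4.51 to 5.97 elsewhere, with cortex lowest throughout and a difference of -1.44 ± 0.12. Ermn, a cytoskeletal protein of myelin, fell by 1.38, and Aspa, which splits N-acetylaspartate, by 1.14. The higher members were Gpr17 (0.50), Sox10 (0.46), Cspg4 (0.45) and Pdgfra (0.20), the last losing its call without any 1 of 10 of the arrays. Of these, Gpr17, Cspg4 and Pdgfra are known from oligodendrocyte precursors, and Sox10 from the whole lineage. Mbp, myelin basic protein, was not called (-0.08, limma adjusted p = 0.194). Several of its other probe sets were called lower, by -0.15 to -0.77, and those at -0.09 and -0.12 were not called.

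Of 25 astrocyte genes, 3 were higher and 16 lower, with a median of -0.48. With the mean of all probe sets per gene the counts were 5 and 10 and the median -0.10. Against hypothalamus alone the counts were 7 and 12, with a median of -0.18. Gfap, the intermediate filament of fibrous astrocytes, read 1.33, 1.49, 2.13 and 2.22 in cortex, 4.86 to 5.37 in hippocampus, 3.39 to 4.04 in hypothalamus and 2.57 to 3.67 in striatum. Agt, angiotensinogen, read 1.81, 1.83, 2.23 and 1.61 in cortex and 5.36 to 5.63 in hypothalamus, its highest region. Cortex was below all other arrays for both, and they fell by 2.20 and 2.30. Slc1a2, the main astrocytic glutamate transporter, went the other way, higher by 0.54 with arrays apart, so the list did not move as one. Microglial genes split into 1 higher and 7 lower of 18, the share lower being near the 39% of all genes. Without striatum in the mean the counts were 6 and 6. C1qa, a complement component, had the largest fall of the list at -0.89.

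Vascular and meningeal lists moved both ways, and neither stood far from the shares of all genes, 28.9% higher and 39% lower. Of 18 endothelial and mural genes, 6 were higher and 5 lower; Kdr, a receptor of vascular endothelial growth factor, rose by 1.78 with arrays apart. Of 17 meningeal and fibroblast genes, 5 were higher and 5 lower, including Col6a1 (1.61), a collagen, and Ogn (-1.92) and Dcn (-1.77), proteoglycans with their higher levels in hippocampus and hypothalamus. A gene dim in cortex passed the filter on low values only through brighter regions, which bears on the choroid plexus and ependymal list. Of its 20 genes on the array 12 passed, and of these 10 were lower and 0 higher, with a median of -1.74. Without hippocampus arrays 1 and 4, 9 were lower, with a median of -1.36. Ttr, transthyretin of the choroid plexus, was not called at -1.88 (limma adjusted p = 0.0782), while 2 of its 3 other probe sets were called lower, both at -2.47 (adjusted p = 0.038 and 0.0418).

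The largest fall of all was in a gene of that list. Calml4, a calmodulin-like protein, read -2.55, -2.37, -2.52 and -2.41 in cortex. Hippocampus had 3.01, 1.67, 1.56 and 2.61, hypothalamus 1.92 to 2.70 and striatum 1.44, 1.58, 1.33 and -0.13. The difference was -4.36 ± 0.28 (limma adjusted p = 6.9e-10), at least 3.73-fold lower. Ecrg4, a secreted peptide precursor known from choroid plexus, read -0.37, -0.10, -0.27 and -0.88 in cortex, 5.07, 1.92, 1.83 and 4.29 in hippocampus and 2.78, 3.48, 1.41 and 0.10 in striatum, with hippocampus arrays 1 and 4 again the high ones. Cortex was still below every other array, the nearest being striatum array 4 at 0.10, and differed by -2.79 ± 0.58 from the mean of the other regions. Tmem212, Cdhr4 and Fam216b fell by 3.97, 3.16 and 2.66. Over the same arrays the choroid plexus and ependymal list averaged 0.62 to 2.23 in striatum and 1.16 to 2.09 in hypothalamus. The part of ventricular tissue in these falls was not tested.

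Other large falls had 1 leading region or none. Sytl4, a regulator of granule secretion, read -2.73 to -2.54 in cortex and 4.40 to 5.38 in hypothalamus, with striatum at -2.46 to -1.31 close above cortex. Outside hypothalamus it was above the array median only on hippocampus array 1 (0.41), so it was tested only through hypothalamus. Hdc, which makes histamine, read -1.06, -1.04, -1.19 and -0.91 in cortex and was above the median on all other arrays, at 0.96 to 3.51, highest in hypothalamus. Lefty1, a secreted inhibitor of Nodal signalling, and Popdc3, a Popeye domain protein, led in hippocampus, at 2.32 to 2.69 and 3.27 to 3.75 against -2.90 to -2.83 and -2.06 to -1.83 in cortex. Ddit4, a stress-induced inhibitor of the mTOR kinase complex, remained well above the array median in cortex. It read 1.90, 2.27, 1.51 and 2.33 in cortex, 3.64 to 4.21 in hypothalamus and 4.68 to 5.34 in hippocampus and striatum, a difference of -2.67 ± 0.13 (limma adjusted p = 4.1e-11). The remaining members were Slitrk6, Myb, Zfp52 and Vit, at -2.80, -2.68, -2.57 and -2.55. Shox2, a homeobox factor, differed by -3.59 with wide spread and overlapped striatum.

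Some differences were larger against a single region than against the mean. Ankrd63, an ankyrin repeat protein gene, read 5.03, 4.59, 4.77 and 4.96 in cortex and -3.24 to -2.27 in hypothalamus, a difference of 7.51 and the largest rise against that region among genes tested. Striatum was higher still at 6.30 to 6.64, and hippocampus lay between at 2.77 to 3.72. The largest falls against striatum were in Gpx6, a glutathione peroxidase gene, Clspn, which encodes the replication checkpoint protein claspin, and Sh3rf2, a ubiquitin ligase gene, at -4.83, -4.32 and -4.24. Gpx6 read 2.96, 2.56, 1.66 and 5.17 in striatum and was below the array median on all other arrays, so it was tested only through striatum. Sh3rf2 was higher in cortex than in hippocampus by 2.31 and was not called against the mean of 3 regions (-0.02, limma adjusted p = 0.946).

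Potassium channel genes mostly rose. Of 42 potassium channel genes, 29 were higher and 4 lower, with a median of 0.61, and 9 had all cortex arrays above the rest, where 9.41% of all genes did. Kcnma1, the pore of the large-conductance calcium-activated channel, read 5.65, 5.77, 5.76 and 5.75 in cortex and 2.09 to 3.61 elsewhere, a difference of 2.62 ± 0.10 (limma adjusted p = 1.98e-12). That is the largest of its 5 probe sets, and the others gave 1.37, 0.46, 0.49 and 0.089, the last pair not called. Kcnj9, a G protein-gated inward rectifier, rose by 2.32 and Kcnf1, a modifying subunit, by 2.29, both with arrays apart. Of 23 calcium and sodium channel genes, 13 were higher and 6 lower, with a median of 0.36. In the G9a cohort controls 6 were higher and 9 lower, with a median of -0.22. Over all genes there, 17.7% were called higher and 34.5% lower, with a median of -0.13. Scn8a, a sodium channel of axon initial segments, rose by 1.48 with arrays apart, whereas Scn4b, a sodium channel beta subunit, rose by 1.98 with its highest mean in striatum. Scn9a fell by 2.01 and was highest in hypothalamus.

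Of 33 glutamate receptor and scaffold genes, 20 were higher and 6 lower, with medians of 0.95 against hypothalamus, 0.10 against hippocampus and 0.09 against striatum. Dlgap2, a scaffold of the postsynaptic density, read 3.61, 4.07, 3.64 and 4.25 in cortex, 2.22 to 3.27 in striatum and -0.85 to 1.18 in the other regions, and rose by 2.83 with arrays apart. Cacng3, an auxiliary subunit of AMPA receptors, rose by 1.50. Grm2, a presynaptic metabotropic receptor, rose by 1.85 and overlapped hippocampus (3.30 to 3.71 against 3.13 to 3.48). Homer3, a scaffold of metabotropic receptors, fell by 2.09 with cortex lowest. GABA and glycine receptor genes were mostly not called, with 1 higher (Gabrd, 1.63) and 5 lower of 15, and after quantile normalization 3 and 4. Of 19 amine and acetylcholine receptors, 11 were higher and 6 lower; Htr1f, a serotonin receptor, rose by 1.63 with arrays apart, and Chrm1, a muscarinic receptor, by 1.54 with means of 4.11 in cortex and 4.09 in hippocampus.

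Adhesion, guidance and regional factors were mixed. Cadherins and protocadherins had 13 higher and 6 lower of 25, with Cdh22 (1.69), Cdh4 (1.38) and Cdh6 (1.23) above and Cdh8 (-1.28) below all other arrays. Of 46 axon guidance genes, 21 were higher and 8 lower, but 14 and 18 against hippocampus. Without hypothalamus in the mean the counts were 15 and 14. Netrin 1 (Ntn1), the plexin Plxna4 and the ephrin receptor Ephb6 rose by 1.66, 1.63 and 1.62 with arrays apart, and Nrp1, a semaphorin receptor, fell by 0.80. Of 36 homeobox and other regional factors, 15 were higher and 12 lower. Lhx2, a pallial selector gene, rose by 1.58 with means of 4.08 in cortex and 4.36 in hippocampus. Lhx9 and Zic2, factors of diencephalic and midline territories, fell by 2.78 and 1.96. Of 22 neurofilament and cytoskeleton genes, 13 were higher and 4 lower, with Map1b (1.68), Tubb4a (1.41), Tubb3 (1.25) and Ina (1.22) above all other arrays.

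Ribosomal protein genes were lower or not called, and respiratory chain genes moved both ways. Of 30 cytosolic ribosomal protein genes, 0 were higher and 17 lower, with a median of -0.21 beside -0.08 for all genes. Against hypothalamus 29 were lower, and without hypothalamus in the mean 5 were higher and 10 lower. After quantile normalization 1 was higher and 16 lower. Rpl37 stood out, at 2.44, 2.80, 2.36 and 2.29 in cortex and 3.71 to 5.02 elsewhere, with no overlap and a difference of -1.68 ± 0.15. Of 50 respiratory chain genes, 6 were higher and 21 lower, or 11 and 17 after quantile normalization, the share lower being near that of all genes. The actin probe gap was widest in hypothalamus, as given above, and its part in these lists was not tested.

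Ehmt1, which is floxed in these mice, and Ehmt2, which is floxed in the other cohort, were both higher in cortex. Ehmt1 read 2.96, 2.74, 2.92 and 2.57 in cortex and 1.75 to 2.56 elsewhere, with no overlap and a difference of 0.61 ± 0.09 (limma adjusted p = 7.67e-06). Ehmt2 read 5.33, 5.26, 5.38 and 5.36 in cortex and 4.31 to 5.12 elsewhere, higher by 0.55 ± 0.06 with no overlap. Of 22 genes of histone H3 lysine 9 methylation, 6 were higher and 10 lower, a split near that of all genes. Trim28, a corepressor, rose by 0.71 and Kdm4c, a demethylase, fell by 0.78. In the G9a cohort controls Ehmt2 differed by 0.11 and was not called (limma adjusted p = 0.669), while Ehmt1 was higher by 0.45.

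Control mice of the G9a cohort gave the same contrast with 2 cortex arrays, and 6464 of 12377 genes (52.2%) were called, or 4261 and 4143 without cortex array 1 or 2. Of the 423 genes that rose by 1 or more with arrays apart, 417 were tested there: 404 had the same sign, 353 (84.7%) were called higher and 3 lower, where 17.7% of all genes tested were called higher. Of the 481 that fell, 455 were tested: 450 had the same sign, 402 (88.4%) were called lower and 2 higher, where 34.5% of all genes were called lower. Abi3bp read 3.38 and 3.59 on the G9a cohort cortex arrays and 0.43 to 1.62 in striatum, and Tbr1 5.75 and 5.76 in cortex with no other array above 4.36. Cartpt read 2.84 and 3.03 in cortex but 2.50 to 3.50 in hypothalamus, so that here the groups overlapped. Kcnk12 read 0.70 and 0.17 in cortex and 0.18, -0.83 and 0.70 in hippocampus, which overlapped also. Of the 14 largest rises all 14 were called higher there, and of the 14 largest falls 12 were called lower. Zfp52 did not pass the filter there, and read -1.16 and -1.33 in cortex and -1.91 to -0.03 elsewhere, so the groups overlapped. Ecrg4 differed by -1.04 and was not called (limma adjusted p = 0.385), with striatum arrays at 0.01, 4.57, 4.43 and 6.32. Among the lists, pallial excitatory genes had 23 higher and 1 lower, astrocyte genes 1 and 16, and hypothalamic genes 3 and 13. Interneuron genes had 8 and 8, with a median of 0.07, immediate early genes 12 and 10, with a median of 0.20, and ribosomal genes 5 and 8, with a median of 0.03. Xist, the RNA of the inactive X chromosome, was above the array median on 0 of 2 arrays in cortex, 1 of 3 in hippocampus, 2 of 4 in hypothalamus and 2 of 4 in striatum, so region and sex are partly confounded in these controls. Across 11969 genes the differences of both cohorts correlated with a Pearson r of 0.75, a description across genes, which are not independent.

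**Figure D5:**
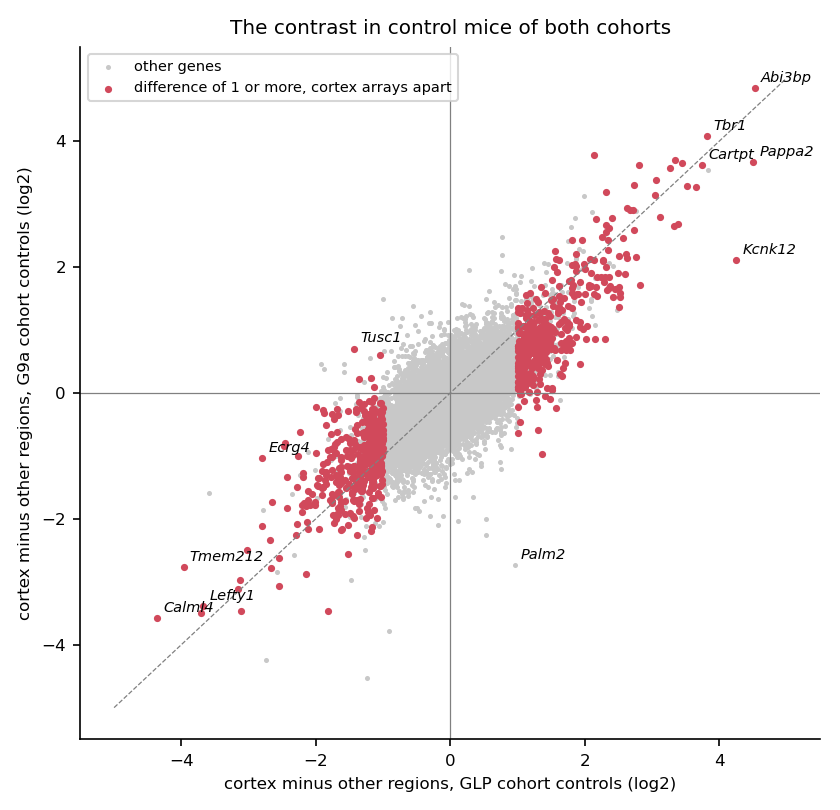
Difference between cortex and the other regions (log2) for 11969 genes in GLP cohort controls (x axis) and G9a cohort controls (y axis); red points are the genes called by 1 or more with cortex arrays apart in the GLP cohort and the dashed line marks equal values. Most red points keep their sign, as Abi3bp and Calml4 do, while Tusc1 and Palm2 change sign.

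The size of the contrast differed between the cohorts in a direct test: 3373 of 12684 genes (26.6%) were called for GLP minus G9a cohort. Among them were 182 (43.0%) of the 423 and 131 (27.2%) of the 481 genes. Both sets were chosen on GLP cohort values, which are 1 side of this test, so their shares partly follow from that choice. The number of calls was 1837 without G9a cortex control 1 and 1396 without G9a cortex control 2. Cohorts also differed in Xist, which lay above the array median on all 16 GLP cohort controls (5.82 to 6.29 in cortex) and below it on both G9a cohort cortex arrays (-1.96 and -1.67). In the cortex arrays, sex, cohort and genotype cannot be told apart.

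In GLP mutants 8151 of 12175 genes (66.9%) were called. A difference between genotypes in the cortex contrast (mutant minus control) was called for 24 of 12421 genes (0.193%) by limma. The contrast was higher in mutants for 19 (0.153%) and lower for 5 (0.0403%). The 24 calls became 8, 12 and 6 without control cortex array 1, 2 or 3, and 10 and 11 without mutant cortex array 3 or 4. A change of equal size in all regions leaves this difference at 0, so the effect of GLP loss itself was not measured by it. Of the 423 genes that rose with arrays apart, 415 were tested in mutants, all 415 had the same sign and 414 were called higher, as 29.6% of all genes were. Of the 481 that fell, 473 were tested and all 473 were called lower, as 37.4% of all genes were. By limma the cortex contrast differed between genotypes in 0 of the 423 and 2 of the 481. At an unadjusted p below 0.05 it differed in 9 (2.1%) and 36 (7.5%), beside 3.9% of all genes. Both sets were chosen on the control values, which are 1 side of this test, so these shares partly follow from the choice. Abi3bp read 3.24, 3.25, 3.36 and 3.30 on the mutant cortex arrays and Tbr1 6.32, 5.82, 6.11 and 5.95, within the span of the controls. Among the 24, Zranb3, a DNA repair helicase, read 1.37 to 2.08 in control cortex and 4.33 to 4.63 in mutant cortex, so that the groups did not overlap. Gpr50, an orphan receptor related to melatonin receptors, read -2.43 to -1.62 in control cortex and 1.50 to 1.87 in mutant cortex. These readings are of cortex alone. The called differences of the contrast, 1.67 for Zranb3 and 2.20 for Gpr50, were smaller than the gaps between them.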

How the data were processed

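RNA was measured on 71 1-colour mouse expression arrays, 59 of whole tissue and 12 of Drd1 or Drd2 neurons, which were not used. The tests used 29 control and 16 GLP mutant arrays, and 14 G9a mutant arrays entered 1 alternative. The deposited values are intensities that the authors made with GCRMA, per the submitters' processing notes, which give no version here. In the deposited table each array's median is 1, the lowest value is 0.0271, and the array maxima of the 16 main arrays are 952.3 to 1330. The number of arrays limits the precision. No 2 of the 16 arrays held the same data: the highest correlation of a pair was 0.9967, with at most 2.771% identical values.

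Values were taken to log2 without a pseudocount. Of 45101 probe sets, 64 controls were left out, the platform annotation names 1 gene for 34945, several for 932 and no gene for 9160. Entrez identifiers matched 34741 probe sets to RefSeq and changed 0 symbols. Where a gene had several probe sets, the one with the highest average in a fit stood for it. Genes above the array median on at least 4 of 16 arrays (or on as many as the smallest group holds) were tested in R 4.3.3 with limma 3.58.1 (lmFit, contrasts, eBayes with an intensity trend), with Benjamini-Hochberg adjustment over all genes tested. The fit was tested on simulated data. Python 3.11.15, numpy 2.4.6, pandas 2.3.3 and matplotlib 3.10.9 made tables and figures. Promoters are RefSeq sequence of build GRCm38.p6.

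The labels call the replicates biological, and p-values measure the spread between these arrays. Replicate numbers are shared between groups, and nothing in the labels says that a number marks a shared animal, so no block was used. The genes, regions and 27 lists (878 entries, 790 on the array) were chosen with earlier results of these data known, so list counts are a description. Named genes were the 14 largest rises and 14 largest falls among genes called by 1 or more with cortex arrays apart, up to 4 called members of a list in each direction, the 3 largest rises and falls against each region, the 6 smallest p-values of each difference between cohorts or genotypes, and a fixed set of defining markers. The olfactory bulb list, the values of Sst, Adcyap1, Chgb, Scg2 and Xist and the motif were added after values were seen. Alternatives were quantile normalization, values below the median set to it, no filter on dim genes, the mean of a gene's probe sets, no trend, all 16 whole-tissue groups in 1 fit, each region left out of the mean, each array left out, and the replicate number as a block.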

Additional observations from a re-analysis of the deposited data

Results flagged for a closer look

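Among 200 groups of 4 control arrays, 13 held an array far from the other 3 by Dixon's criterion, where chance flags about 1 group in 20. The groups were 4 regions of 50 genes, those named for the largest changes and the defining markers. In cortex the array apart was array 4 for Tnnc1 (4.10 on the log2 scale), array 1 for Tmem212 (-2.60), array 2 for Slitrk6 (-1.09) and Shox2 (-2.45), and array 3 for Myb (-1.91). In hippocampus it was array 2 for Scube1 (-0.54) and Gpx6 (-2.36). In hypothalamus it was array 2 for Pappa2 (-3.27) and Egr3 (0.26), array 3 for Sytl4 (4.40) and array 4 for Drd1 (1.82). In striatum it was array 4 for Pappa2 (-3.31) and Calml4 (-0.13). Cortex array 3, whose omission gave the fewest calls in the main contrast, was apart for 1 of these genes.

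The difference between cohorts in the cortex contrast (GLP minus G9a control mice) was called by limma for 3373 genes. The genes of smallest p were Tusc1, a candidate tumour suppressor gene (-2.13, from -1.42 in the GLP cohort and 0.71 in the G9a cohort, adjusted p = 6.72e-12), Slc8a2, a sodium-calcium exchanger (2.51, adjusted p = 2.64e-10, by a probe set other than that of the main contrast), Ccdc14 (2.63, adjusted p = 7.10e-10), Palm2 (3.69, adjusted p = 7.55e-10), Dnajb14, a chaperone partner (1.26, adjusted p = 2.27e-09), and Cenpn, a centromere protein (-2.44, adjusted p = 1.35e-08). By the probe set of the main contrast, Slc8a2 was higher in cortex by 0.91 in the GLP cohort, and in the G9a cohort it read -0.02 and 0.30 in cortex and -1.09 to -0.26 elsewhere, so its probe sets disagree. Cenpn lay below the array median on all G9a cohort control arrays, where differences have no exact size. Palm2 was higher in cortex by 0.96 in the GLP cohort and lower by -2.73 in the G9a cohort. The G9a cohort holds 2 cortex arrays, and cohort, sex and floxed gene cannot be told apart in them.

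The difference between GLP mutants and controls in the cortex contrast was called by limma for 24 genes. The genes of smallest p were Gkn1, a gastrokine (2.40, adjusted p = 8.02e-07), Zranb3 (1.67, adjusted p = 2.12e-06), Adh6b, an alcohol dehydrogenase (-1.67, adjusted p = 4.13e-06), Cd2, a lymphocyte adhesion molecule (-1.34), Bbox1, an enzyme of carnitine synthesis (1.39), and Gpr50 (2.20), the last 3 with an adjusted p of 0.00331.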

How the results depend on the processing

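With no filter on dim genes, calls numbered 12604 in the main contrast, 10552 against hippocampus, 11576 against striatum and 12480 in mutants, and genes that rose with arrays apart 721, as more genes were tested. That last number was 836 without hippocampus in the mean and 709 without striatum. Genes that fell with arrays apart numbered 288 with the mean of all probe sets, and the mutant difference held 62 genes with values set to the array median; the cause was not tested.

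Some genes changed direction (cause not tested). With the mean of all probe sets Pou3f3 was 0.27, Trib2 0.047, Cnr1 0.77, Pdgfra -0.23, Dlg2 0.072, Scn3a 0.12, Map2 0.19, Dpysl2 0.49 and Sdha -0.11. Without hippocampus in the mean Gpr6 was -0.035, Gabra5 0.46, Htr1d -0.15, Htr5b 0.57, Th -0.33 and Drd2 -0.45. Without hypothalamus Egr3 was -0.19, Ppp1r1b -0.16, Pmch 0.046, Wfs1 -0.48, Vtn -0.13, Glra2 0.20, Sncg 0.29, Avp 0.72, Oxt 0.12 and Gad1 -0.11. Without striatum Kcnk2 was 0.47, Cnr1 0.19, Strn 0.33, Ebf1 0.26, Bok -0.056, Grik4 -0.029, Kcnab1 0.48, Kcna4 0.34, Htr1b 0.25 and Adra2c 0.43.

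Leaving out each array in turn gave 7575 to 8342 calls in the main contrast, 408 to 476 and 460 to 505 genes apart, 5935 to 6933 against hippocampus, 8935 to 9392 against hypothalamus, 6851 to 7722 against striatum, 7591 to 8191 in mutants, 4143 to 6804 in G9a cohort controls, 1396 to 3634 for the cohort difference, 6 to 33 for the mutant difference and 422 to 467 list members. The low G9a and cohort values came without 1 G9a cortex array, the low mutant differences without GLP cortex controls 1, 2 or 3 or mutants 3 or 4. Of the named genes, 17 lost their call without some array, most often Btg2 (12 arrays), Pdgfra and Pomc (10 each).

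With the replicate block, calls numbered 8382 in the main contrast, 423 and 481 genes apart, 6755, 9384 and 7556 against hippocampus, hypothalamus and striatum, 6150 in G9a cohort controls, 8329 in mutants, 3431 for the cohort and 20 for the mutant difference, and none of 244 tests of named genes changed its call or direction. Same-numbered arrays deviated together with correlations of -0.22 to 0.42 (22 of 24 over 0.1), and 15 of 16 arrays correlated best with their own number, a hint from the data and not the design. Left out after the data were seen, striatum arrays 3 and 4 gave 8164 calls (462 and 484 apart) and hippocampus arrays 1 and 4 gave 7923 (428 and 479 apart). Quantile normalization moved the median of all genes in G9a cohort controls from -0.13 to -0.00 and the share of higher calls there from 33.9% to 49.6%, and for the cohort difference from 66.1% to 49.8%. The deposited values carry no detection call, so precision was judged from the spread between arrays.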
